A study of Mus musculus with 2 samples.

Results

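The genes described here build the acidic, protein-degrading lysosome: subunits of the vacuolar proton pump (V-ATPase), the cathepsin proteases, and the lysosome-associated membrane proteins (LAMP). They were taken by symbol, as every gene that begins with Atp6v, with Atp6ap or with Lamp and a digit, together with Ctsa, Ctsb, Ctsc, Ctsd, Ctse, Ctsf, Ctsh, Ctsk, Ctsl, Ctso, Ctsw and Ctsz. This gave 42 of the 32285 genes measured, of which 14 are V1 genes of the pump, 12 are V0 and accessory genes, 12 are cathepsins and 4 are LAMP genes. The rule uses symbols alone, but the set was chosen with earlier results of these data known. Ctss, the cathepsin most closely tied to MHC class II loading, is outside this rule and is given with the other lysosome genes at the end.

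The V-ATPase is a rotary machine. Its V1 part in the cytosol splits ATP, and its V0 part in the membrane moves protons into the lumen of endosomes and lysosomes. Cathepsins are made as inactive precursors that mature in this acid lumen, where most act as cysteine proteases (Ctsb, Ctsc, Ctsf, Ctsh, Ctsk, Ctsl, Ctso, Ctsw and Ctsz), Ctsd and Ctse as aspartic proteases, and Ctsa as a serine carboxypeptidase. LAMP proteins coat the inner face of the lysosomal membrane with sugar chains. In dendritic cells (DC) these compartments cut antigen and the invariant chain into the peptides that MHC class II molecules carry, and conventional DC are known to keep acidification and protease activity lower than macrophages do.

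Single-cell RNA sequencing profiled splenic DC of 2 genotypes, in 1 library each: WT mice, which are H2-Aa +/+, and mice homozygous for the cit allele of H2-Aa (H2-Aa cit/cit). Each library was made from the pooled cells of 3 naive female mice aged 4 months. H2-Aa encodes the alpha chain of the class II molecule I-A, and cit, short for citation, is a chemically induced germline mutation that the study describes as effectively null and that every cell of the mouse carries. Live CD45.2+ CD11c+ cells were sorted after magnetic enrichment for CD11c, so that any CD11c-bearing cell could enter. With 1 library per genotype there is no replicate error, no difference between genotypes was tested, and genotype cannot be told apart from the pool, the sort or the library. Cells of a library are not replicates, and intervals given below cover counting error only.

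The WT library held 7814 cells and 51020804 UMIs (unique molecules), with a median of 5492 per cell, and the H2-Aa cit/cit library held 11525 cells and 72652201 UMIs, with a median of 5633. H2-Aa itself, the mutated gene, had 276007 UMIs in the WT library against 4807 in the other, that is 5410 and 66.2 counts per 1000000 UMIs (CPM). The libraries shared 31 cell barcodes. Cells were sorted into classes by marker genes, none of which is among the 42. Conventional type 2 DC (cDC2-like) were split into Ffar2+ (1414 WT and 3369 H2-Aa cit/cit cells), Ccr2+ (187 and 602) and other cDC2-like cells (470 and 1520). Further classes were mature DC-like cells with Ccr7 and Fscn1 (1918 and 1197) and cDC1-like cells with Xcr1 and Clec9a (485 and 581). Plasmacytoid DC-like (pDC-like) cells with Siglech (98 and 104) and proliferating cells (258 and 507) were also set apart. So were monocyte-like cells with Ace (153 and 209) and macrophage-like cells with C1qa (115 and 67). Low-ribosomal cells (2039 and 2620) had under 8% ribosomal protein UMIs and passed no gate other than those of cDC2. Cells under this limit that held cDC2 markers were placed here, and the cDC2-like classes hold no cell under it. These 10 classes took in 91.3% of the WT cells, and for H2-Aa cit/cit 93.5%. In every class with a marker list, each marker of the list had UMIs in both libraries. The proliferating class mixed lineages. Of its cells, 91 from WT and 143 from H2-Aa cit/cit fell in a cluster led by the neutrophil markers S100a9, S100a8 and Camp. Another 35 and 45 fell in a cDC1-like cluster. Cells cannot be traced to single mice of a pool.

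Of the 42 genes, 30 had at least 20 UMIs in both libraries. The other 12 were Atp6v1b1, Atp6v1c2, Atp6v1e2, Atp6v1fnb, Atp6v1g3, Atp6v0a4, Atp6v0d2, Atp6v0e2, Atp6ap1l, Ctsf, Lamp3 and Lamp5, and 3 of them (Atp6v1e2, Atp6ap1l and Lamp5) had no UMI at all. Several of the 12 are known as the forms of a subunit that kidney, bone or testis use, and Atp6v1fnb is a neighbour of Atp6v1f taken in by its symbol. Lamp3, known as DC-LAMP and used in human tissue to mark mature DC, had 3 UMIs in WT against 2 in H2-Aa cit/cit cells, of which 1 came from the 1918 mature DC-like cells of WT and none from the 1197 of H2-Aa cit/cit.

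A level is the UMIs of a gene in a class per 1000000 UMIs of that class. Over the 10 classes, 13 of the genes differed at least 4-fold between their highest and lowest class in both libraries. Since UMIs count 3′ ends and detection differs between transcripts, levels are compared between classes and libraries and not between genes.

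**Figure D1:**
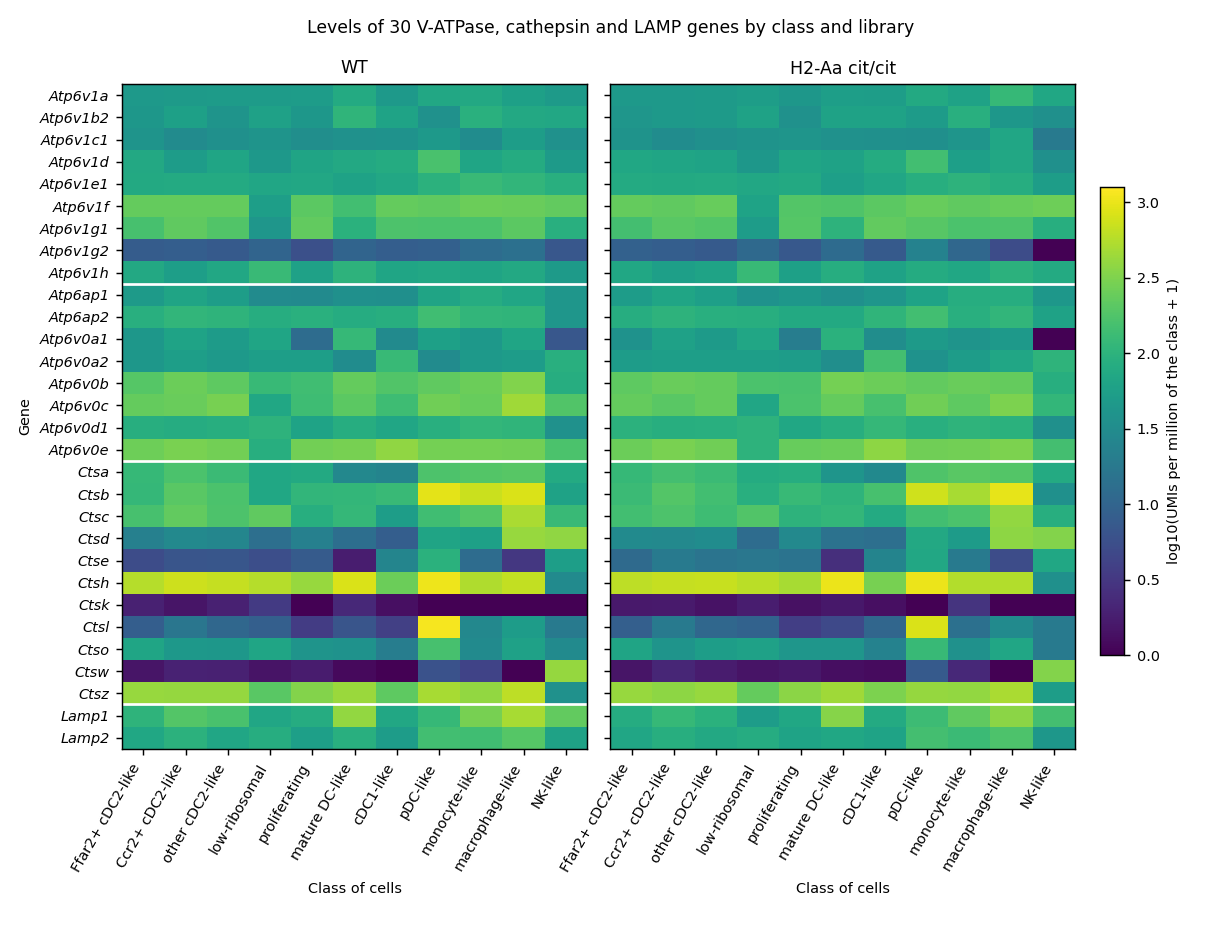
Levels of the 30 V-ATPase, cathepsin and LAMP genes with at least 20 UMIs in both libraries (rows, in the order V1, V0 and accessory, cathepsins, LAMP) in 10 classes and in NK-like cells (columns), with WT on the left and H2-Aa cit/cit on the right; colour is log10 of the CPM plus 1. Atp6v1g1, Atp6v1f, Atp6v0c and Atp6v0e are lower in the low-ribosomal column, and Ctsl, Ctsb, Ctsd, Ctse and Ctsw each stand out in a few columns in both libraries.

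Among the 4 groups of genes, the summed V1 level varied least over the classes. It lay between 488 CPM in low-ribosomal and 909 CPM in macrophage-like WT cells, and between 508 CPM in low-ribosomal and 919 CPM in pDC-like H2-Aa cit/cit cells. Atp6v1a, the subunit that splits ATP, lay between 45.2 CPM in cDC1-like and 77.8 CPM in mature DC-like WT cells. In H2-Aa cit/cit it lay between 42.8 CPM in proliferating and 119 CPM in macrophage-like cells, the latter on 28 UMIs. Atp6v1c1, Atp6v1e1 and Atp6v1h, which make the stalks and the regulatory arm, each varied by less than 2.5 times over the classes of either library: Atp6v1h was lowest in Ccr2+ cDC2-like cells (53.3 and 55.2 CPM) and highest in low-ribosomal cells (124 and 122 CPM). Atp6v1d, part of the turning central shaft, stood at 163 CPM in WT against 145 CPM in H2-Aa cit/cit pDC-like cells, and at 73.9 and 68.6 CPM in Ffar2+ cDC2-like cells. Atp6v1g2, the form of the G subunit best known from neurons, stayed under 25 CPM in every class. Atp6v1g1, the widespread form, lay between 41.9 CPM in low-ribosomal and 225 CPM in proliferating WT cells.

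In the V0 part, forms of its largest subunit were highest in different classes. Atp6v0a1 was highest in mature DC-like cells, at 120 CPM in WT (95% Poisson interval 114 to 126) against 95.4 CPM in H2-Aa cit/cit (88.2 to 103), and lowest in proliferating cells, at 11.5 and 19.6 CPM. Atp6v0a2 was highest in cDC1-like cells, at 123 CPM in WT (114 to 132) against 147 CPM in H2-Aa cit/cit (139 to 156), where Atp6v0a1 stood at 29.5 and 32.3 CPM. In mature DC-like cells Atp6v0a2 was at 31.4 and 33.2 CPM. Each form was thus several times higher in its own class than in the other's, in both libraries. Atp6v0c, whose protein forms the proton-carrying ring, and its relative Atp6v0b were highest among WT classes in macrophage-like cells, at 450 and 321 CPM, and the accessory genes Atp6ap1 and Atp6ap2 lay between 29.1 and 144 CPM throughout.

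Each class was then set against Ffar2+ cDC2-like cells, and a gene was counted when it differed by at least 2-fold in the same direction in both libraries and had a mean level of at least 20 CPM. No gene of the set was counted in Ccr2+ cDC2-like cells (of 25, with 4.45% of all genes counted), in other cDC2-like cells (of 25, 0.864%) or in proliferating cells (of 25, 8.42%). In low-ribosomal cells, Atp6v1g1, Atp6v1f, Atp6v0c and Atp6v0e were lower, which is 4 of 24 genes, where 12.3% of all genes were lower and 5.4% higher. Their levels were lower by 2.53- to 4.27-fold, and the median ribosomal share of these cells was 3.19% in WT against 4.29% in H2-Aa cit/cit, compared with 15.9% and 17.5% in Ffar2+ cells. Low-ribosomal cells were also shallower, with medians of 2795 and 2157 UMIs against 8064 and 6803 in Ffar2+ cells. Their median mitochondrial shares were 2.27% and 3.09%, against 1.51% and 1.61%. The part of depth and RNA quality in the levels of this class was not tested.

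In mature DC-like cells Lamp1 was 3.91-fold higher in WT and 4.19-fold higher in H2-Aa cit/cit than in Ffar2+ cDC2-like cells, Atp6v0a1 was 2.80-fold and 2.56-fold higher, and Ctsa, a carboxypeptidase that also shields other lysosomal enzymes, was 4.37-fold and 2.94-fold lower. These were 2 genes higher and 1 lower of 24, where 9.62% of all genes were higher and 9.65% lower. In cDC1-like cells Atp6v0a2 was 2.85-fold and 2.94-fold higher, and 3 cathepsins were lower, of 24 genes (4.47% of all genes higher, 9.2% lower). These were Ctsa by 4.85-fold and 4.17-fold, Ctso by 3.31-fold and 2.77-fold, and Ctsh by 2.30-fold and 2.11-fold. The cathepsins together made 718.5 CPM in cDC1-like WT cells and 927 CPM in cDC1-like H2-Aa cit/cit cells, the lowest sum among the 10 classes in both libraries.

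The other extreme was the pDC-like class, where 6 of 27 genes were higher by 2-fold and none lower (8.43% of all genes higher, 7.84% lower). Ctsl, an endopeptidase that in thymic epithelium processes the invariant chain, was at 1154 CPM in WT (1088 to 1223) against 844 CPM in H2-Aa cit/cit (780 to 912). In proliferating cells, the lowest class, it was at 2.51 and 2.77 CPM, and in Ffar2+ cDC2-like cells at 7.38 and 7.73 CPM. With each cell thinned to 1500 UMIs, Ctsl was found in 75.3% of 97 WT pDC-like cells (95% exact binomial interval 65.5% to 83.5%) against 56.7% of 104 from H2-Aa cit/cit (46.7% to 66.4%). In mature DC-like cells, which serve as background here, it was found in 0.374% and 0.599% of cells. Unthinned, the pDC-like shares were 89.8% and 78.8% at median depths of 9918 and 7258 UMIs, and those in mature DC-like cells 3.86% and 2.17% at 6631 and 5101 UMIs. Of the pDC-like cells, 93 from WT and 90 from H2-Aa cit/cit fell in the pDC-like cluster. Another 4 from WT but 12 from H2-Aa cit/cit fell in a cluster led by Cyp7b1 and Cd209d.

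Ctsb, a broad-range peptidase, was 8.0-fold and 5.83-fold higher in pDC-like than in Ffar2+ cDC2-like cells, at 928 CPM in WT against 751 CPM in H2-Aa cit/cit. Ctse, an aspartic protease of endosomes, stood at 95.4 and 71.1 CPM, which was 22.7-fold and 6.49-fold above Ffar2+ cells, and Ctsd, Atp6v1d and Lamp2 were the remaining 3. Ctso, which did not reach 2-fold in H2-Aa cit/cit, was nevertheless highest in this class at 155 and 122 CPM. The pump did not stand out in the same way: the summed V1 level was 879 and 919 CPM in pDC-like cells and 746 and 731 CPM in Ffar2+ cDC2-like cells.

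In monocyte-like cells Lamp1, Atp6v1b2 and Ctsb were higher, 3 of 25 genes (4.41% of all genes higher, 2.59% lower), with Ctsb at 704 CPM in WT against 496 CPM in H2-Aa cit/cit. Of these cells, 78 WT and 80 H2-Aa cit/cit cells fell in a cluster led by Apoc2 and Fabp4, where Ctsb was at 1285 and 1033 CPM, and 41 and 76 cells fell in a cDC2-like cluster, where it was at 235 and 186 CPM. In macrophage-like cells Ctsc, Ctsd, Lamp1, Ctsb and Lamp2 were higher, 5 of 25 genes (3.85% of all genes higher, 1.79% lower). Ctsd, the main aspartic protease of lysosomes, was at 420 CPM in WT (362 to 483) against 373 CPM in H2-Aa cit/cit (299 to 459) in this class, compared with 21.2 and 29.4 CPM in Ffar2+ cDC2-like cells and 7.34 and 12.4 CPM in cDC1-like cells. These levels are averages over unlike cells. In the cluster led by C1qa, with 63 macrophage-like cells from WT against 39 from H2-Aa cit/cit, Ctsd was at 1117 and 1361 CPM, Ctsb at 2332 and 2817 CPM, Lamp1 at 645 and 692 CPM and Ctsc at 422 and 716 CPM. Another 27 cells from WT and 18 from H2-Aa cit/cit fell in the cluster of Ccr2+ cDC2-like cells, and those of WT held 167 of the 235 Ctsc UMIs of the class, at 905 CPM, with Ctsd at 201 CPM. Macrophage-like cells were shallow, with medians of 1851 and 1520 UMIs, and markers of cDC2 made 1521 and 1394 CPM in them.

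NK-like cells, 30 in WT against 24 in H2-Aa cit/cit, were too few for the comparison of libraries but carried a cathepsin pattern of their own. Ctsw, a cathepsin of cytotoxic lymphocytes, was at 404 CPM in WT (314 to 513) against 337 CPM in H2-Aa cit/cit (240 to 461). Among the 10 classes above, its highest level was 5.02 CPM in WT against 6.59 CPM in H2-Aa cit/cit, both in pDC-like cells. Ctsd was also high in NK-like cells, at 381 and 337 CPM, whereas Ctsh and Ctsz, which are abundant in the DC classes, were at 29.7 and 34.6 CPM and at 35.7 and 51.9 CPM.

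**Figure D2:**
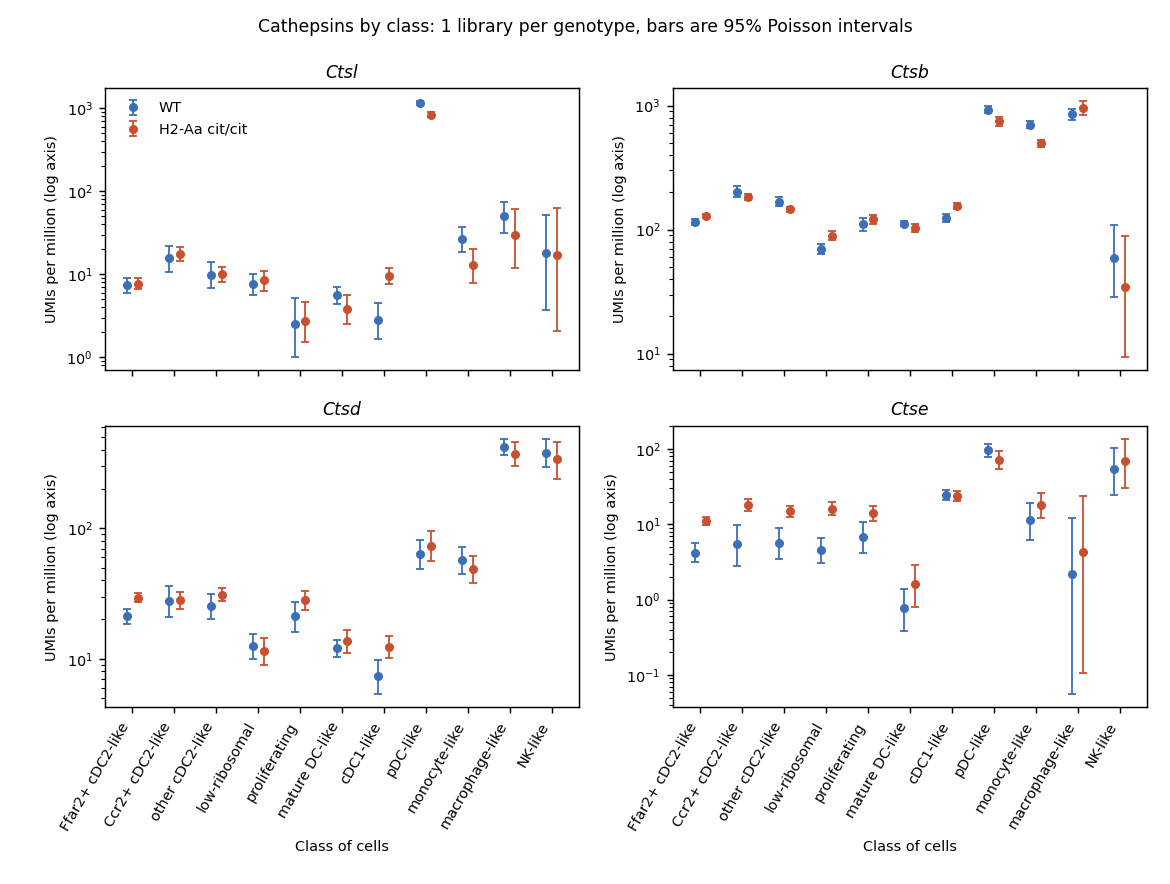
CPM (UMIs per 1000000) on a log axis for Ctsl, Ctsb, Ctsd and Ctse in 10 classes and in NK-like cells, with WT in blue and H2-Aa cit/cit in orange; a point is a class of a library and bars are 95% Poisson intervals. Ctsl at 1154 and 844 CPM in pDC-like cells stands far above every other class, Ctsd stands highest in macrophage-like and NK-like cells, and Ctse in H2-Aa cit/cit lies above WT in the cDC2-like, low-ribosomal and proliferating classes.

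The second comparison set H2-Aa cit/cit against WT cells of the same class. A gene was counted when its level differed by at least 1.5-fold and it had at least 20 CPM over both libraries. Few of the 42 genes were counted. Of the 25 genes with at least 20 CPM in Ffar2+ cDC2-like cells, 0 passed 1.5-fold, where 2.92% of all genes did. The counts were 1 of 25 in Ccr2+ cDC2-like cells (all genes 4.8%), 1 of 25 in other cDC2-like cells (5.31%), 0 of 24 in low-ribosomal cells (4.05%) and 0 of 24 in proliferating cells (4.19%). They were 1 of 24 in mature DC-like cells (8.56%), 1 of 25 in cDC1-like cells (15.3%), 0 of 27 in pDC-like cells (11.1%), 0 of 25 in monocyte-like cells (9.02%) and 3 of 26 in macrophage-like cells (35%). In each class the share of the set that was counted lay below that of all genes, by little in Ccr2+ and other cDC2-like cells. With 24 to 27 genes per class, a single gene moves such a share by several points. All genes were not matched to the set in level, so no result about the set is drawn from this order. The median log2 ratio of the set lay between -0.18 in macrophage-like and 0.23 in cDC1-like cells, and that of all genes between -0.04 and 0.04.

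**Figure D3:**
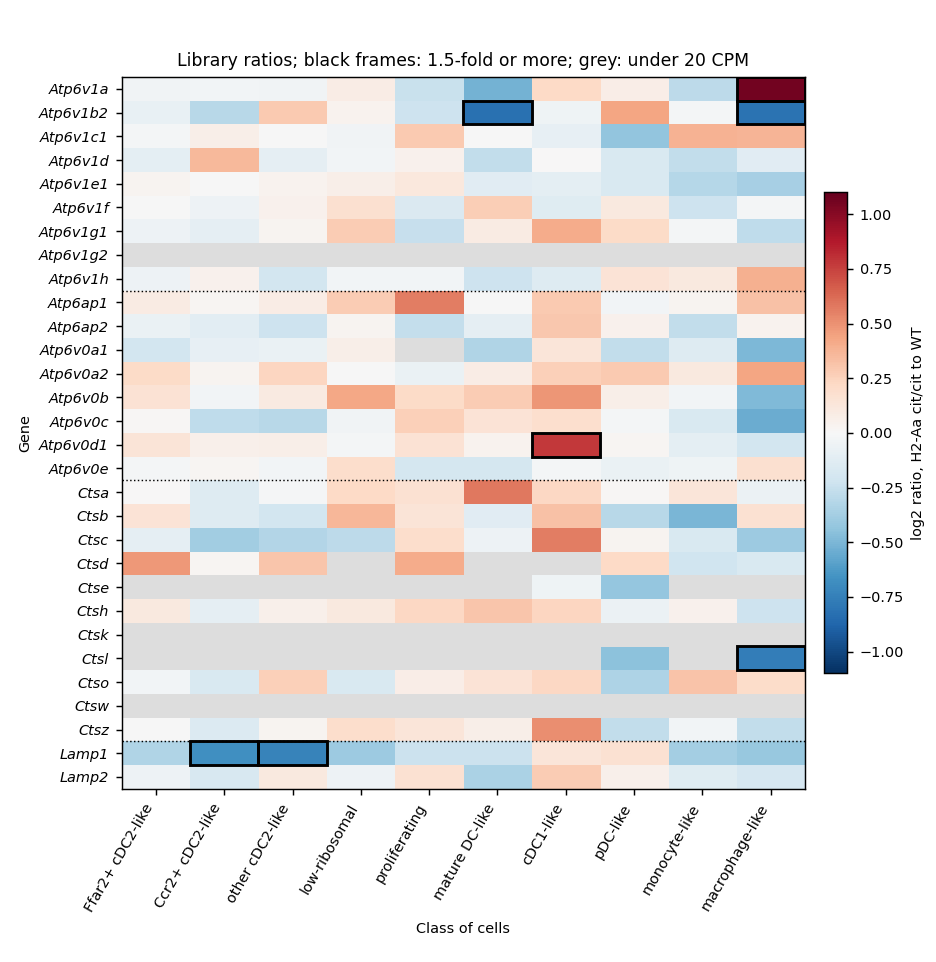
Log2 ratio of the level in H2-Aa cit/cit to that in WT for the same 30 genes (rows) in 10 classes (columns); blue is lower and red higher in H2-Aa cit/cit, black frames mark ratios of at least 1.5-fold, and grey marks genes under 20 CPM over both libraries. Lamp1 is blue in each column but the cDC1-like and pDC-like ones, and the cDC1-like column is mostly red for V0 genes and cathepsins.

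Lamp1, a chief glycoprotein of the lysosomal membrane, was the only gene of the set with at least 20 CPM that passed 1.5-fold in a cDC2-like class. In Ccr2+ cDC2-like cells it was at 187 CPM in WT (371 UMIs) against 117 CPM in H2-Aa cit/cit (698 UMIs), a log2 ratio of -0.67 (95% interval -0.86 to -0.49). In other cDC2-like cells it was at 159 CPM (530 UMIs) and 95.7 CPM (951 UMIs), a log2 ratio of -0.73 (-0.89 to -0.58). In both, the WT level was higher and the counting intervals were far apart.

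The direction was the same in 6 further classes at smaller size. Lamp1 was at 102 CPM in WT against 81.0 CPM in H2-Aa cit/cit Ffar2+ cDC2-like cells (log2 ratio -0.33, -0.44 to -0.23), and at 67.9 and 51.3 CPM in low-ribosomal cells (-0.40, -0.61 to -0.19). In mature DC-like cells, where it is most abundant among DC, it was at 399 and 339 CPM (-0.23, -0.30 to -0.16). It was lower also in monocyte-like cells (286 and 220 CPM) and macrophage-like cells (487 and 364 CPM), and in proliferating cells the interval included 0 (-0.24, -0.48 to 0.01). For macrophage-like cells in the cluster led by C1qa, Lamp1 was not lower, at 645 (482 to 846) and 692 CPM (464 to 994). For monocyte-like cells in the cluster led by Apoc2 and Fabp4 it was at 369 (317 to 426) and 325 CPM (277 to 380). For those in the cDC2-like cluster it was at 272 (222 to 330) and 207 CPM (171 to 247), again with overlapping intervals. In cDC1-like cells Lamp1 was at 70.4 and 77.4 CPM (0.14, -0.04 to 0.32) and in pDC-like cells at 118 and 133 CPM (0.17, -0.23 to 0.56), with intervals that include 0 in both (with clusters in place of gates the cDC1-like ratio was -0.19).

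Lamp2, the second membrane glycoprotein and the receptor of chaperone-mediated autophagy, did not share this pattern. It was at 69.7 CPM in WT against 67.0 CPM in H2-Aa cit/cit Ffar2+ cDC2-like cells, at 98.1 and 86.7 CPM in Ccr2+ and at 67.8 and 73.1 CPM in other cDC2-like cells, with all 3 intervals including 0. Among the 10 classes, only in mature DC-like cells was it lower in H2-Aa cit/cit beyond counting error, at 88.4 against 69.3 CPM (log2 ratio -0.35, -0.51 to -0.20), and in cDC1-like cells it was higher, at 50.5 against 61.3 CPM (0.28, 0.07 to 0.49).

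Markers of mature DC, the class richest in Lamp1 among DC, moved with Lamp1 in the cDC2-like classes. All 7 mature markers had UMIs in each of these classes, and together they made 242 CPM in WT against 99.0 CPM in H2-Aa cit/cit other cDC2-like cells, 127 against 90.2 CPM in Ccr2+, 161 against 104 CPM in Ffar2+ and 237 against 154 CPM in low-ribosomal cells. In monocyte-like cells they made 139 against 76.7 CPM and in macrophage-like cells 258 against 59.3 CPM, with 6 of 7 markers found in WT and 5 of 7 in H2-Aa cit/cit in both. Markers of cDC1 were also higher in WT in other cDC2-like cells, at 182 against 73.8 CPM. When every cell with a UMI of a mature marker was left out, a choice made after the data had been seen, the Lamp1 log2 ratio was -0.38 in other cDC2-like cells, which no longer passes 1.5-fold, -0.16 in Ffar2+ and -0.30 in low-ribosomal cells, and -0.90 in the 83 WT and 436 H2-Aa cit/cit Ccr2+ cells that remained. With clusters in place of marker gates the ratio was -1.01 in the Ccr2+ class, -0.10 in the Ffar2+ class and -0.11 in the low-ribosomal class. The part of mature and cDC1 transcripts in these ratios was not tested.

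Other cDC2-like cells were themselves spread over clusters. Those in the cluster of Ccr2+ cDC2-like cells, 135 of WT against 750 of H2-Aa cit/cit, had Lamp1 at 210.2 CPM (184 to 239) against 99.1 CPM (90.8 to 108). Those in the cluster of Ffar2+ cells, 72 against 324, had 73.5 CPM (50.9 to 103) against 49.8 CPM (40.3 to 60.8). Those in a cluster led by Sox4 and Pf4, 108 against 171, had 137 and 142 CPM. The intervals of the libraries were apart in the first of these clusters and overlapped in the second. Ffar2+ cDC2-like cells were spread over the same clusters. Of them, 784 from WT and 2051 from H2-Aa cit/cit fell in the cluster of Ffar2+ cells. Another 318 and 393 fell in the cluster led by Sox4 and Pf4, and 132 and 594 in that of Ccr2+ cells. The part of this mix in the ratios of Ffar2+ cells, and in comparisons with them, was not tested.

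**Figure D4:**
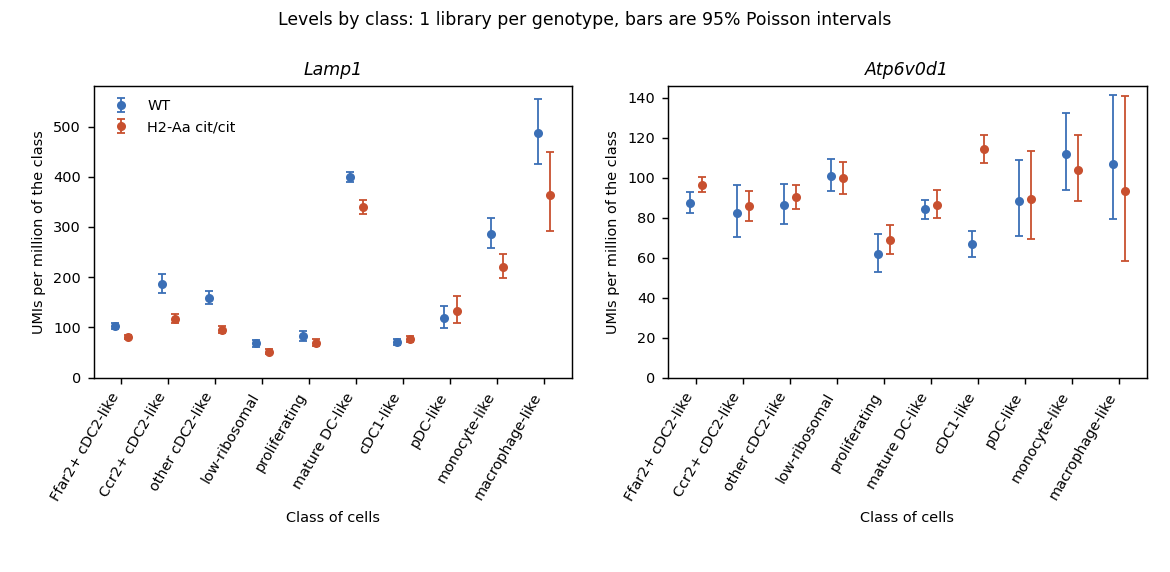
CPM (UMIs per 1000000) of Lamp1 (left) and Atp6v0d1 (right) in 10 classes, with WT in blue and H2-Aa cit/cit in orange; a point is a class of a library and bars are 95% Poisson intervals. Lamp1 lies lower in H2-Aa cit/cit in the 3 cDC2-like classes, at 117 against 187 CPM in Ccr2+ cells, and Atp6v0d1 passes 1.5-fold in cDC1-like cells alone, at 114 against 66.7 CPM.

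The promoters of Lamp1 and Atp6v0d1, which passed 1.5-fold in DC classes, are shown with that of Ctsd, since a palindrome read by the TFEB family of lysosome regulators, CACGTG, is known from lysosomal promoters. Atp6v1b2, which also passed 1.5-fold in a DC class, had no matched promoter. Ctsd did not pass 1.5-fold in any class where it had at least 20 CPM. Each line gives the 150 bases before the RefSeq start in build GRCm38.p6, 5′ to 3′ on the gene's strand, with CACGTG in capitals. Lamp1 is at chr8:13159011-13159160 on the plus strand, Ctsd at chr7:142387828-142387977 on the minus strand and Atp6v0d1 at chr8:105566065-105566214 on the minus strand.
Lamp1: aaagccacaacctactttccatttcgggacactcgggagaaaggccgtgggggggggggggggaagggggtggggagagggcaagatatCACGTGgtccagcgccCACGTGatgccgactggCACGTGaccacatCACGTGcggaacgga
Ctsd: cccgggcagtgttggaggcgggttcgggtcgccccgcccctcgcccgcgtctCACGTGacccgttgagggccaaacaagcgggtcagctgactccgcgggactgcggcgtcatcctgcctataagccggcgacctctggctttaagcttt
Atp6v0d1: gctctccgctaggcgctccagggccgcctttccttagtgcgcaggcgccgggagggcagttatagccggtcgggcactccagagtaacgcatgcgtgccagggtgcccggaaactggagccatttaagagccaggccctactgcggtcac
In GENCODE vM21 on the same build, Lamp1 spans chr8:13159161-13175338 on the plus strand and Atp6v0d1 chr8:105524465-105566047 on the minus strand. Ctsd spans chr7:142375911-142388038 on the minus strand, so its printed window lies inside the GENCODE gene and not before it. The Lamp1 window holds 4 copies of CACGTG, the Ctsd window 1 and the Atp6v0d1 window 0. The 150-base window of Ctsl, which is not printed, also holds 0. That window, chr13:64370521-64370670, likewise lies inside the GENCODE gene, chr13:64359337-64370890 on the minus strand. RefSeq promoters were matched for 31 of the 42 genes. These 31 genes have 36 promoters. Over the 250 bases before the start, CACGTG, which is its own reverse complement, was present in 7 of the 36 promoters and in 6.02% of 32851 promoters. The 7 are those of Atp6v0b, Atp6v1a, Ctsa, Ctsd, Ctsf, Ctsl and Lamp1. The longer TCACGTGA, which contains it, was present in 3 of the 36 promoters, those of Atp6v1a, Ctsa and Ctsd, and in 0.785% of the 32851. These are letters in a window and say nothing of binding in these cells. Tfeb itself was at 170 CPM in WT against 154 CPM in H2-Aa cit/cit Ffar2+ cDC2-like cells (log2 ratio -0.15) and below 1.5-fold in every class. Of its relatives, Mitf was lower in H2-Aa cit/cit by more than 1.5-fold in macrophage-like cells. Tfe3 passed in no class with at least 20 CPM.

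Ctse gave the opposite pattern to Lamp1, at low levels. It was at 4.20 CPM in WT (49 UMIs) against 11 CPM in H2-Aa cit/cit (272 UMIs) Ffar2+ cDC2-like cells, a log2 ratio of 1.38 (0.94 to 1.85). The ratio was 1.71 (0.81 to 2.75) in Ccr2+ cells, from 11 and 108 UMIs, and 1.37 (0.68 to 2.15) in other cDC2-like cells, from 19 and 147 UMIs. It was 1.81 (1.20 to 2.46) in low-ribosomal cells, from 29 and 103 UMIs, and 1.04 (0.30 to 1.86) in proliferating cells, from 19 and 71 UMIs.

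All 5 of these levels lie under the 20 CPM minimum, so they do not enter the counts above. The ratio stayed between 0.74 and 1.82 in these 5 classes under each alternative run, and without cells holding mature markers it was 1.11 to 1.72 in the 4 classes other than the proliferating. Where Ctse was most abundant, no such difference was seen: it was at 24.5 CPM in WT against 23.7 CPM among H2-Aa cit/cit cells of the cDC1-like class (log2 ratio -0.05, -0.36 to 0.27) and at 95.4 and 71.1 CPM in pDC-like cells (-0.42, -0.93 to 0.07). Markers of pDC, the class richest in Ctse, made 42.1 CPM in WT (4 of 5 markers with UMIs) against 30.05 CPM in H2-Aa cit/cit Ffar2+ cDC2-like cells and 92.6 against 63.6 CPM in low-ribosomal cells, and markers of cDC1 made 25.1 against 31.1 CPM and 108 against 65.1 CPM. Their part in the Ctse ratio was not tested. After thinning to 1500 UMIs, Ctse was found in 0.70% (0.373% to 1.19%) of WT but 2.44% (1.83% to 3.18%) of H2-Aa cit/cit low-ribosomal cells, against 0.16% and 0.257% of mature DC-like cells as background. In Ffar2+ cDC2-like cells the shares were 0.647% (0.296% to 1.22%) and 1.26% (0.911% to 1.70%), whose intervals overlap. Unthinned shares were 3.04% and 6.92% at median depths of 8064 and 6803 UMIs.

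The remaining proteases of the cDC2-like classes differed little. Ctsh, an aminopeptidase, was at 574 CPM in WT against 619 CPM in H2-Aa cit/cit Ffar2+ cells (log2 ratio 0.11, 0.07 to 0.15). Ctsz, a carboxypeptidase, was at 418 CPM in both. Ctsd was at 21.2 and 29.4 CPM in Ffar2+ cells (0.47, 0.26 to 0.69) and at 27.7 and 28.2 CPM in Ccr2+ cells (0.03, -0.42 to 0.49). Ctsc, which activates granule serine proteases, was at 224 and 171 CPM in Ccr2+ cells (-0.39, -0.55 to -0.22) and at 171 and 137 CPM in other cDC2-like cells (-0.32, -0.46 to -0.18). The summed cathepsin level was 1480 CPM in WT against 1542 CPM in H2-Aa cit/cit Ffar2+ cells and 1827 and 1659 CPM in Ccr2+ cells.

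Sums over the pump subunits differed little between libraries in cDC2-like cells. The summed V1 level was 746 and 731 CPM in Ffar2+ cells (log2 ratio -0.03, -0.07 to 0.01), 771 and 753 CPM in Ccr2+ cells (-0.03, -0.12 to 0.05) and 755 and 763 CPM in other cDC2-like cells (0.01, -0.05 to 0.08). All 3 intervals include 0. The summed V0 level was 991 and 1020.0 CPM in Ffar2+ cells (0.04, 0.01 to 0.07), 1163 and 1112 CPM in Ccr2+ cells (-0.06, -0.13 to 0.00) and 1116 and 1067 CPM in other cDC2-like cells (-0.06, -0.12 to -0.01), so the interval excludes 0 in the first and the last. Atp6v0c was lower in H2-Aa cit/cit in Ccr2+ cells, at 246 against 203 CPM (-0.28, -0.43 to -0.12), and in other cDC2-like cells, at 291 against 235 CPM (-0.31, -0.42 to -0.20), but not in Ffar2+ cells, at 233 and 235 CPM. In proliferating cells Atp6v0a1 was at 11.5 CPM in WT against 19.6 CPM in H2-Aa cit/cit (0.77, 0.18 to 1.39), on 32 and 99 UMIs. The part of the cluster with neutrophil markers in the levels and ratios of this class was not tested.

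In mature DC-like cells Atp6v1b2, the B subunit that shares the ATP sites with Atp6v1a, was lower in H2-Aa cit/cit. It was at 105 CPM in WT (1503 UMIs) against 59.4 CPM in H2-Aa cit/cit (406 UMIs), a log2 ratio of -0.82 (-0.98 to -0.66). Atp6v1a was at 77.8 and 54.3 CPM (-0.52, -0.69 to -0.35) and Atp6v0a1 at 120 and 95.4 CPM (-0.33, -0.46 to -0.20). The summed V1 level was 702 against 638 CPM (-0.14, -0.19 to -0.09), whereas the summed V0 level was 1080 and 1090 CPM (0.01, -0.03 to 0.05). Ctsh was at 830 CPM in WT against 1026 CPM in H2-Aa cit/cit (0.31, 0.26 to 0.35) and Ctsa at 27.0 and 40.4 CPM (0.58, 0.35 to 0.81), both higher in H2-Aa cit/cit.

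The mature class was not made of the same cells in both libraries. A cluster led by Mab21l3, Gclc and Laptm4b held 409 of the 1918 WT but 24 of the 1197 H2-Aa cit/cit mature DC-like cells, and cDC1 markers made 150 CPM in WT against 48.3 CPM in H2-Aa cit/cit. Within this cluster Atp6v1b2 was at 193 CPM in WT (181 to 206) against 200.4 CPM in H2-Aa cit/cit (146 to 269). Within the larger mature cluster, led by Dkk2, with 1294 cells from WT against 1035 from H2-Aa cit/cit, Atp6v1b2 was at 62.5 CPM (57.2 to 68.1) and 54.4 CPM (48.5 to 60.8). Without the Laptm4b cluster, a choice made after the data had been seen, the Atp6v1b2 log2 ratio of the class was -0.18 and that of Atp6v1a 0.06, and without cells that hold a cDC1 marker UMI they were -0.51 and -0.18. Neither alternative passes 1.5-fold. Lamp1 and Lamp2, lower in the whole class, were at 365 and 352 CPM and at 72.5 and 71.2 CPM within the Dkk2 cluster. Ctsh, higher in the whole class, was at 1096 and 1084 CPM in the Dkk2 cluster and 401 and 583 CPM in the Laptm4b cluster.

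**Figure D5:**
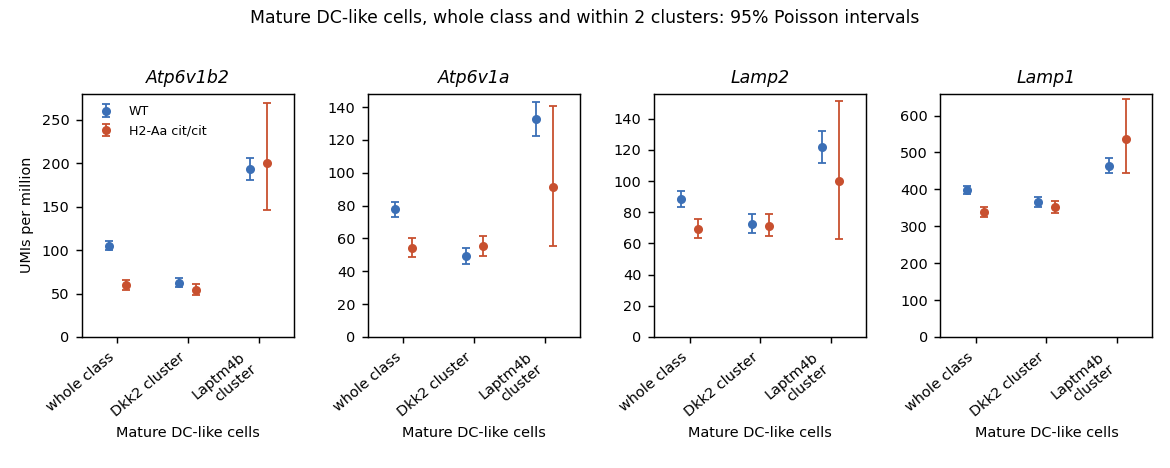
CPM (UMIs per 1000000) of Atp6v1b2, Atp6v1a, Lamp2 and Lamp1 in mature DC-like cells, for the whole class, for its cells in the cluster led by Dkk2 and for its cells in the cluster that holds Laptm4b among its leading genes; WT is blue, H2-Aa cit/cit is orange, and bars are 95% Poisson intervals. Atp6v1b2 differs in the whole class, at 105 against 59.4 CPM, and lies at 193 and 200.4 CPM in the Laptm4b cluster, which holds 409 mature DC-like cells from WT but 24 from H2-Aa cit/cit.

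In cDC1-like cells the set leaned the other way. Atp6v0d1, the V0 subunit that couples the ring to the central shaft, was at 66.7 CPM in WT (400 UMIs) against 114 CPM in H2-Aa cit/cit (986 UMIs), a log2 ratio of 0.78 (0.61 to 0.95). It passed 1.5-fold under each of the alternatives run, at 0.66 to 0.86. In the other 9 classes its ratio lay between -0.20 and 0.16.

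Alongside it, the summed V0 level of cDC1-like cells was 1038 CPM in WT against 1225 CPM in H2-Aa cit/cit (0.24, 0.19 to 0.28) and the summed cathepsin level 718.5 and 927 CPM (0.37, 0.31 to 0.42), while the summed V1 level was 770 and 797 CPM (0.05, -0.00 to 0.10). Single V1 genes differed in direction. Atp6v1g1 was at 170 and 226 CPM (0.41, 0.30 to 0.52), and Atp6v1f at 230 and 210 CPM (-0.13, -0.23 to -0.03). Ctsc was at 51.7 and 76.6 CPM (0.57, 0.37 to 0.77), Ctsz at 214 and 304 CPM (0.51, 0.41 to 0.61) and Atp6v0b at 181 and 253 CPM (0.49, 0.38 to 0.59). At low level, Ctsd was at 7.34 and 12.4 CPM (0.76, 0.24 to 1.30) and Ctsl at 2.83 CPM (17 UMIs) and 9.62 CPM (83 UMIs), a log2 ratio of 1.76 (1.0 to 2.61). A cDC1-like cluster led by Gm11837, Cd207 and Cd8a, with a median ribosomal share of 31.9%, held 129 of the 485 cells from WT but 23 of the 581 from H2-Aa cit/cit. Within the other cDC1-like cluster, with 344 and 547 cells, Atp6v0d1 was at 71.1 CPM (64.0 to 78.7) and 114 CPM (107 to 122) and Ctsz at 204 and 303 CPM. There Atp6v1g1 was at 153 and 227 CPM, and Atp6v1f at 203 and 206 CPM. Median depth was 12328 UMIs in WT against 14953 in H2-Aa cit/cit cells, and mature DC markers made 48.2 and 21.9 CPM.

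The smaller classes gave wider intervals. In pDC-like cells Ctsl was at 1154 CPM in WT against 844 CPM in H2-Aa cit/cit (log2 ratio -0.45, -0.59 to -0.31) and Ctsb at 928 and 751 CPM (-0.31, -0.46 to -0.15). Atp6v1g2 was at 8.03 CPM (8 UMIs) and 22.4 CPM (17 UMIs) there, a log2 ratio of 1.48 (0.19 to 2.90). The part of the pDC-like cells outside the pDC-like cluster in these ratios was not tested. In monocyte-like cells Ctsb was at 704 and 496 CPM (-0.50, -0.65 to -0.36) and Ctsl at 26.8 CPM (33 UMIs) and 13.0 CPM (20 UMIs), a log2 ratio of -1.04 (-1.92 to -0.20). Ctsb was at 1285 and 1033 CPM in the 78 of 153 and 80 of 209 cells of the cluster led by Apoc2 and Fabp4. In the 41 and 76 cells of the cDC2-like cluster it was at 235 and 186 CPM. The part of this mix in the monocyte-like ratios was not tested. In macrophage-like cells Atp6v1a was at 56.8 CPM (26 UMIs) and 119 CPM (28 UMIs), a log2 ratio of 1.06 (0.24 to 1.89), which became -0.54 when clusters replaced the marker gates. Atp6v1b2 (34 and 10 UMIs) and Ctsl (23 and 7 UMIs) were lower by more than 1.5-fold there with intervals that include 0. Ctsk, the collagen-degrading cathepsin of osteoclasts, had 15 UMIs in WT against 5 UMIs in H2-Aa cit/cit low-ribosomal cells.

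A list of 77 other lysosome genes, including pump assembly factors, membrane proteins, hydrolases and cathepsin inhibitors, was counted the same way. Genes past 1.5-fold were 0 of 56 in Ffar2+ cDC2-like, 0 of 48 in low-ribosomal and 1 (lower) of 57 in Ccr2+ cDC2-like cells, 1 higher and 1 lower of 57 in other cDC2-like cells, and 1 (higher) of 53 in proliferating cells. In mature DC-like cells 2 were higher and 4 lower of 54, in cDC1-like cells 2 higher and 6 lower of 55, in pDC-like cells 2 higher and 4 lower of 59, in monocyte-like cells 0 higher and 3 lower of 59, and in macrophage-like cells 3 higher and 16 lower of 65. The list's median log2 ratio lay within 0.04 of 0 in each class but the macrophage-like, where it was -0.20. Shares of all genes in these classes are those given above with the counts of the set. The share of the list that was counted lay below that of all genes in each class but the mature DC-like (all genes 8.56%). It was close to that of all genes in cDC1-like (15.3%) and pDC-like cells (11.1%). No result about the list is drawn from this order.

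Genes of the list that passed in the same direction in more than 1 class are named here. Arsb, a sulfatase, was lower in H2-Aa cit/cit in Ccr2+ (121 and 80.1 CPM), other cDC2-like (88.0 and 56.6 CPM) and cDC1-like cells (342 and 158 CPM, log2 ratio -1.12, -1.22 to -1.02), and in macrophage-like cells. Ncoa7, which binds the pump, was lower in mature DC-like (381 and 155 CPM) and cDC1-like cells (174 and 104 CPM), Rogdi, a pump assembly factor, in cDC1-like and macrophage-like cells, and Galc in the same 2 classes. As given above, the mature DC-like and cDC1-like classes hold clusters whose share of cells differed between the libraries. The part of these clusters in the ratios of the list was not tested. Slc11a1 was lower in monocyte-like and macrophage-like cells and Nagpa in pDC-like and monocyte-like cells, though Nagpa was higher in macrophage-like cells (8 and 7 UMIs). Cln3 was higher in other cDC2-like (37.2 and 56.2 CPM) and proliferating cells (32.6 and 53.0 CPM). Ctss, the cysteine cathepsin left out by the rule, was at 862 and 794 CPM in Ffar2+ (log2 ratio -0.12, -0.15 to -0.08), 1242 and 962 CPM in Ccr2+ (-0.37, -0.44 to -0.30) and 402 and 433 CPM in cDC1-like cells (0.11, 0.03 to 0.18). Tcirg1, the a3 form of the subunit that Atp6v0a1 and Atp6v0a2 also encode, was at 48.5 and 54.1 CPM in Ffar2+ cDC2-like cells (0.16, 0.02 to 0.30) and at 41.7 and 28.4 CPM in cDC1-like cells (-0.55, -0.81 to -0.29), where V0 genes of the set leaned higher.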

How the data were processed

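Splenic DC were measured by 10X 3′ single-cell RNA sequencing in 1 WT and 1 H2-Aa cit/cit library. Each deposited matrix gives raw UMI counts of genes in cells. According to the submitters' processing notes the authors aligned and counted with Cell Ranger 5.0.1 on mm10 and used Seurat downstream. The gene annotation and its handling of reads shared between genes are not given in the sources used here. The matrices hold called cells alone, with at least 500 UMIs each.

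The 42 genes, the class markers and the list of 77 other genes were chosen with earlier results of these data known, and gate thresholds were set after the data had been seen. A cell entered a class when at least 3 markers of its list had a UMI and these made at least 5 UMIs in 10000 (10 for mature and proliferating). For cDC2-like lists, 2 markers with a UMI were enough, with no minimum of UMIs in 10000. The low-ribosomal class was set at under 8% ribosomal protein UMIs, with 248 WT and 266 H2-Aa cit/cit cells within 1 point under this limit. It took precedence over the cDC2-like gates. For the mature gate, 671 and 587 cells lay 1 marker short. Cells that passed both the mature and the cDC1 gate were kept as mature DC-like. Cells that otherwise passed several lineage gates (40 and 29) and cells that passed none (577 and 668) were left out, and doublets were not otherwise removed.

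UMIs were summed per class and library and divided by the class total. Levels have exact Poisson intervals, ratios exact conditional binomial intervals and shares exact Clopper-Pearson intervals, at 95%. The ratio intervals alone were run on simulated Poisson counts, which hold counting error and no variation between cells or mice. Genes named with values reached 100 CPM in a class in both libraries, differed at least 4-fold between classes in both, or passed 1.5-fold between libraries with an interval excluding 0; this gave 28 genes, and others were named after their values were seen. Alternatives were median-ratio scaling, clusters (30 components, 20 neighbors, resolution 0.5), limits on mitochondrial (10%) and ribosomal shares, removal of the 488 and 1063 highest Scrublet scores, means over cells, stricter gates (levels alone), thinning to 3000 UMIs, other minimum levels and folds, and those named in the text. Python 3.11.15, numpy 2.4.6, scipy 1.17.1, pandas 2.3.3, scanpy 1.11.5 and matplotlib 3.10.9 were used. Gene overlaps were read from GENCODE vM21: among the 42 genes, Atp6v0a4 overlaps another gene on its strand.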

Additional observations from a re-analysis of the deposited data

Results flagged for a closer look

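For Atp6v1b2 and Atp6v1a, ratios of H2-Aa cit/cit to WT had opposite signs in different classes with counting intervals that exclude 0. They were not alone in this. Ctsb, Ctsc, Ctsl and Lamp2 also had such ratios, as with Ctsc at 0.57 in cDC1-like and -0.39 in Ccr2+ cDC2-like cells. For Atp6v1b2 the log2 ratio was 0.29 in other cDC2-like cells (130 and 474 UMIs), with an interval of 0.006 to 0.58 that barely excludes 0. It was -0.82 in mature DC-like cells (1503 and 406 UMIs). For Atp6v1a it was 1.06 in macrophage-like cells (26 and 28 UMIs) and -0.52 in mature DC-like cells (1114 and 371 UMIs). The macrophage-like ratio of Atp6v1a changed sign with clusters in place of gates. The mature ratios depended on the Laptm4b cluster, with 409 mature DC-like cells from WT but 24 from H2-Aa cit/cit. Without this cluster the mature ratio of Atp6v1a changed sign and that of Atp6v1b2 no longer passed 1.5-fold. With 1 library per genotype the difference between these classes was not tested.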

How the results depend on the processing

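No paired analysis was possible because each genotype has 1 library, made from pooled mice, which gives no fit. Of the log2 ratios recomputed, 1645 moved by less than their counting error and 103 by more. Among ratios past 1.5-fold with an interval that excludes 0, 1 changed sign: Atp6v1a in macrophage-like cells was -0.54 with clusters. Smaller ratios also changed sign, such as those of Lamp1 in cDC1-like and Atp6v1a in mature DC-like cells. Counts of genes past 1.5-fold are given next in the order Ffar2+, Ccr2+, other cDC2-like, low-ribosomal, proliferating, mature, cDC1-like, pDC-like, monocyte-like and macrophage-like. The shares of all genes under these settings are not given, so the counts show only how the number of called genes depends on the setting. With no minimum level they were 7, 5, 9, 5, 4, 9, 7, 4, 7 and 6, since genes with few UMIs then enter. With a limit 25% above the lower level in place of 1.5-fold they were 2 in Ffar2+, 3 in Ccr2+, 3 in low-ribosomal, 2 in proliferating, 5 in mature, 5 in cDC1-like, 5 in pDC-like, 3 in monocyte-like and 13 in macrophage-like cells. With a minimum of 10 CPM they were 2 in Ccr2+, other cDC2-like, proliferating, cDC1-like and monocyte-like cells and 1 in low-ribosomal and pDC-like cells. With clusters they were 2 in Ccr2+, mature and cDC1-like, 1 in proliferating, 3 in monocyte-like and 10 in macrophage-like cells. With median-ratio scaling they were 1 in proliferating and 2 in mature and cDC1-like cells. Without cells under 8% ribosomal UMIs they were 2 in cDC1-like and 6 in macrophage-like cells, and without the top doublet scores 2 and 9. The mature count was 0 without cells holding a cDC1 marker UMI and 0 without the Laptm4b cluster, and the other cDC2-like count was 0 without cells holding mature markers. Of the levels, 964 moved by less than counting error under stricter gates or means over cells and 132 by more, and 266 of the shares moved with the depth of thinning, as more UMIs per cell make them larger. For the counts in macrophage-like cells and all other shifts the cause was not tested. Depth limits the pDC-like, monocyte-like and macrophage-like classes, where a gene at 20 CPM rests on few UMIs per library.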
